A study of Mus musculus with 6 samples.

Results

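The noncanonical NF-kB pathway genes described here are 9 genes picked by symbol from 18437 listed genes: the kinases Map3k14 and Chuk, the adaptors Traf1, Traf2 and Traf3, the ubiquitin ligases Birc2 and Birc3, and the NF-kB subunits Relb and Nfkb2. They are a pathway list, chosen with earlier results of these data known. All 9 were matched, and all 9 passed the filter on low values in both groups. The libraries come from orthotopic tongue tumours of C57BL/6 mice injected with 4MOSC1, a murine oral squamous cell carcinoma line. There were 3 LIGHT libraries, from tumours of 4MOSC1 cells that overexpress LIGHT, and 3 control libraries, from tumours of 4MOSC1-con cells. LIGHT is the TNF superfamily ligand encoded by Tnfsf14. Both groups share the line, the strain and the injection site, and neither the age and sex of the mice nor the time of collection nor the vector is stated in the labels. LIGHT is added in the injected tumour cells, while the RNA comes from whole tumour tissue with the host cells in it.

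In the noncanonical pathway, the protein made from Map3k14, NF-kB-inducing kinase (NIK), is kept scarce in resting cells by a complex of TRAF3, TRAF2 and the ubiquitin ligases cIAP1 and cIAP2, the products of Birc2 and Birc3. Binding of ligands such as LIGHT or lymphotoxin to the lymphotoxin beta receptor draws this complex to the receptor, TRAF3 is degraded and NIK accumulates. NIK then activates IKK alpha, the product of Chuk, which marks the Nfkb2 product p100 for processing to p52, and p52 enters the nucleus with RelB. These steps act on proteins, so RNA levels report the supply of transcripts and not the activity of the pathway. The pathway is known for its part in the formation of lymphoid organs, and tertiary lymphoid structures are the subject named in the title of the study.

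Values are given as TPM, which corrects for transcript length, so levels can be compared between genes. Since TPM discards the read totals, the depth is unknown and counting intervals cannot be had. Fold changes are differences of log2(TPM + 1) between LIGHT and control libraries with a standard error (SE) and a Benjamini-Hochberg adjusted p from limma, fitted over 13167 genes. Calls use an adjusted p under 0.05. In bulk tissue, more cells of a type and more RNA per cell cannot be told apart. Nothing in the labels ties a library to an animal, so p-values rest on the spread between the 6 samples only, which may be technical. The targeted gene, Tnfsf14, had 26.2, 25.9 and 23.9 TPM in the LIGHT libraries, against 0.66, 0.53 and 0.79 TPM in the control libraries. The levels fit the labels of all 6 libraries.

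Of the 9 genes 7 rose and 0 fell in LIGHT tumours, where 17.7% of all tested genes rose and 5.41% fell. That background depends on the scaling: 2325 genes rose and 712 fell with the values as deposited, 1626 rose and 2005 fell after trimmed-mean (TMM) scaling, and 1410 rose and 1813 fell after quantile scaling. Of the 9 genes 7 were called higher and 0 lower under each of these scalings. Both subunit genes rose, and 5 of the 7 adaptor and kinase genes did. Birc2 and Chuk did not pass the test. The median log2 fold change was 1.03 for the subunit genes and 0.69 for the adaptor and kinase genes, against 0.09 for all tested genes. For 8 of the 9 genes every LIGHT library lay above every control library, which held for 29.6% of all tested genes.

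**Figure D1:**
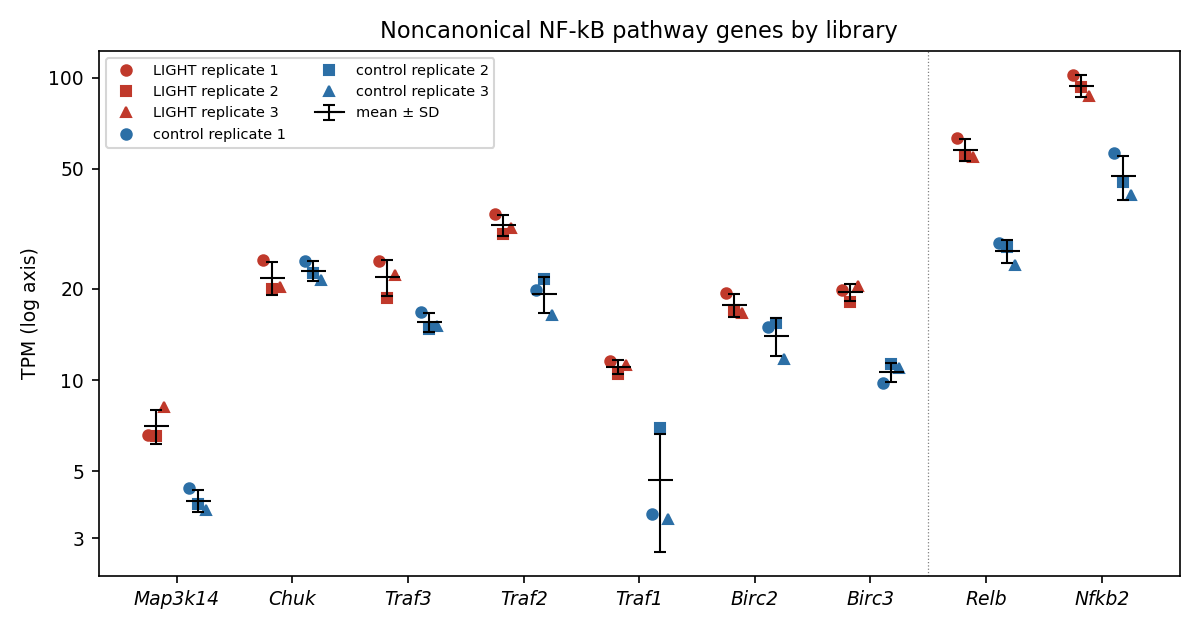
TPM (log axis) of the 9 genes in each library, LIGHT left of control for each gene; symbols are replicates and bars are the mean ± SD of 3 libraries. The LIGHT libraries lie above all control libraries for every gene but Chuk, whose groups overlap.

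The subunit genes had the highest means of the 9 in both groups. Relb, which encodes the DNA-binding partner of p52, had 63.2, 55.1 and 54.8 TPM in the LIGHT libraries, against 28.4, 27.5 and 24.1 TPM in the control libraries. The groups lie far apart relative to their spread. The mean was 57.7 ± 4.81 TPM in LIGHT tumours and 26.7 ± 2.30 TPM in control tumours (SD, n = 3 each), a ratio of 2.16. This is 1.09 on the log2 scale (SE 0.10, limma adjusted p = 0.0011), and 2.61% of tested genes had a larger rise.

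Nfkb2, which encodes p100 and its processed form p52, had 102, 93 and 86.7 TPM in the LIGHT libraries, against 56.1, 45 and 40.8 TPM in the control libraries. Replicate 1 was the highest library in each group, and the groups did not overlap. The means were 94 ± 7.85 TPM in LIGHT tumours and 47.3 ± 7.92 TPM in control tumours (SD, n = 3 each), a ratio of 1.99. On the log2 scale the change was 0.98 (SE 0.13, limma adjusted p = 0.00314). Permuting the library labels in an exact two-sided test gave p = 0.1 for each of the 8 genes whose groups did not overlap, the smallest that this design allows, and p = 0.6 for Chuk.

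The subunit genes moved nearly in step. The Relb to Nfkb2 ratio was 0.618, 0.592 and 0.632 in the LIGHT libraries, against 0.506, 0.611 and 0.59 in the control libraries. The groups overlap in this ratio, and control replicate 1 is the low value. The genes outside the 9 whose profile over the 6 libraries was closest to Relb, by root mean square difference of centred log2(TPM + 1) values, were Cxcl16 (0.06), Evl (0.06) and Gpr171 (0.07). Cxcl16 encodes a chemokine that binds CXCR6, and Evl an actin regulator. Those closest to Nfkb2 were Cd1d1 (0.08), Rgs5 (0.08) and Cdc42ep3 (0.08). Relb and Nfkb2 differed from each other by 0.10, and 22 of the tested genes were closer to Relb than Nfkb2 was.

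Nfkb2 lies on chromosome 19 from 46300994 to 46312400 (GRCm38.p6), where it overlaps Psd and the non-coding 4833438C02Rik. Of its annotated transcript 50-mers, 14.9% also occur, on either strand, in transcripts of AC114539.1 or Psd, the highest share among the 9 genes. The labels do not state whether counting used strand. Psd had 4.98, 4.14 and 4.46 TPM in the LIGHT libraries, against 2.65, 2.07 and 1.49 TPM in the control libraries, and rose with a log2 fold change of 0.86 (limma adjusted p = 0.0094). Reads from Nfkb2 and Psd in the shared stretch cannot be told apart without strand. How the 14.9% divides between AC114539.1 and Psd, or between the strands, was not analysed. Relb, on chromosome 7 from 19606217 to 19629438, overlaps no other RefSeq gene. Map3k14, Traf1, Traf2 and Traf3 overlap 1 RefSeq gene each, whose share of their reads was not analysed here.

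Nfkb2 is a textbook target of NF-kB itself, so the sequences in front of the members were searched for a kB-type motif. The RefSeq promoter table for GRCm38.p6 holds windows of 300 bases, with 250 before and 50 after a start site, for 8 of the 9 genes; Relb has no entry. The motif GGGNNNTTCC, on either strand, occurred in 5.56% of all 32851 windows, and in windows of Nfkb2, Traf2, Traf3 and Chuk. The looser motif GGGNNNNNCC, which contains the first, occurred in 50.8% of all windows and in those of 6 of the 8 genes. The matches of the first motif are shown because they differ in number between the genes, with the match in capitals.
Nfkb2, first start, chr19:46304689-46304714, plus strand: gatcgtcacgGGAATTCCCCccctcg
Nfkb2, first start, chr19:46304716-46304741, plus strand: ggggccgaaaGGGGCTTTCCcggctg
Nfkb2, second start, chr19:46305449-46305474, plus strand: tccgacggcaGGAATGTCCCcacaaa
Nfkb2, shared by the last 2 starts, chr19:46305695-46305720, plus strand: tggtattttcGGGACTTTCCtaagca
Traf3, chr12:111166350-111166379, plus strand: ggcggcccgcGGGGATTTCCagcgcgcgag
Traf2, chr2:25546891-25546920, minus strand: cgcggcagcggGGGTGTTTCCcggcgagcg
Chuk, chr19:44107524-44107553, minus strand: accaatcccaGGGTGATTCCaggagctcgg
Each of the first 2 windows of Nfkb2 held 2 matches, and 0.201% of all windows held 2 or more. The windows of the last 2 starts overlap and share a match. Chuk, whose level did not pass the test, held a match of the first motif as well, and Birc3, Map3k14 and Traf1, which rose, held none. Birc3 and Map3k14 did hold a match of the looser motif, as 50.8% of all windows did. A match is a string of letters and was not tested as a binding site.

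Among the kinases, Map3k14 rose and Chuk did not pass the test. Map3k14 had 6.56, 6.53 and 8.13 TPM in the LIGHT libraries, against 4.38, 3.9 and 3.71 TPM in the control libraries. It had the lowest mean of the 9 genes in both groups, and its groups did not overlap. The means were 7.07 ± 0.92 TPM in LIGHT tumours and 4.00 ± 0.35 TPM in control tumours (SD, n = 3 each), a log2 difference of 0.69 (SE 0.12, limma adjusted p = 0.00813).

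Chuk had 25, 20.1 and 20.4 TPM in the LIGHT libraries, against 24.8, 22.6 and 21.4 TPM in the control libraries. The groups overlap. The log2 difference was -0.07 (SE 0.11, limma adjusted p = 0.674), with a 95% interval of -0.33 to 0.19. Its sign was positive in fits with the mean of haemoglobin genes or of basal keratinocyte markers as a covariate. Map3k14 per Chuk transcript was 0.262, 0.326 and 0.399 in the LIGHT libraries, against 0.177, 0.173 and 0.173 in the control libraries.

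Of the TRAF adaptors, which link receptors to the ubiquitin ligases, all 3 rose. Traf2 had 35.3, 30.3 and 31.8 TPM in the LIGHT libraries, against 19.9, 21.5 and 16.4 TPM in the control libraries, a log2 difference of 0.73 (SE 0.12, limma adjusted p = 0.0062). The groups lie well apart. Traf3, the adaptor that binds NIK, had 24.8, 18.7 and 22.3 TPM in the LIGHT libraries, against 16.8, 14.8 and 15.1 TPM in the control libraries. LIGHT replicate 2 lies close to control replicate 1. The rise of Traf3 was 0.46 on the log2 scale (SE 0.12, limma adjusted p = 0.0289), the smallest of the 7 rises. The call of Traf3 was lost without LIGHT replicate 1 or 3, without control replicate 2 or 3, and with the mean of skeletal muscle markers as a covariate (adjusted p up to 0.145).

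Traf1, an inducible TRAF that lacks the RING domain and forms mixed trimers with TRAF2, had 11.6, 10.5 and 11.2 TPM in the LIGHT libraries, against 3.61, 6.93 and 3.46 TPM in the control libraries. Control replicate 2 stands above the other controls and below every LIGHT library. The log2 difference was 1.14 (SE 0.21, limma adjusted p = 0.0104), the largest of the 9, with the widest SE. Traf1 missed the threshold once haemoglobin was a covariate (log2 difference 0.96, limma adjusted p = 0.0673). The coefficient of variation of Traf1 was 5.16% in LIGHT libraries and 42% in control libraries. In LIGHT tumours, those of the other 8 genes ran up to 13.8%, and in control tumours up to 16.7%. Control replicate 2 was also the control library with the highest summed T cell markers, at 171 TPM against 70.9 and 83 TPM in control replicates 1 and 3, and the part of T cells in the Traf1 values was not tested.

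The cIAP genes lie in tandem on chromosome 9, Birc2 from 7818226 to 7837131 and Birc3 from 7847468 to 7873205. Birc3, which encodes the inducible cIAP2 and is a known NF-kB target, had 19.9, 18.2 and 20.5 TPM in the LIGHT libraries, against 9.79, 11.3 and 10.9 TPM in the control libraries. The groups lie far apart, at a log2 difference of 0.82 (SE 0.10, limma adjusted p = 0.00232). Birc2, which encodes cIAP1, had 19.4, 17 and 16.6 TPM in the LIGHT libraries, against 15, 15.4 and 11.7 TPM in the control libraries. Its groups did not overlap, but they lie close, and the test was missed at a log2 difference of 0.32 (SE 0.12, limma adjusted p = 0.105, 95% interval 0.03 to 0.61).

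Birc3 per Birc2 transcript was 1.02, 1.07 and 1.24 in the LIGHT libraries, against 0.653, 0.732 and 0.931 in the control libraries, so the more abundant of the pair was Birc3 in LIGHT tumours and Birc2 in control tumours. The genes are close paralogs, and 7.56% of the annotated 50-mers of Birc3 and 1.49% of those of Birc2 occur in the transcripts of another gene, each other included. These shares are 384 of the 50-mers of Birc3 and 68 of those of Birc2, and Gm7019 shares more of them with Birc3 than Birc2 does. Only reads in the part common to Birc2 and Birc3 could be assigned to either gene, and its size was not analysed.

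**Figure D2:**
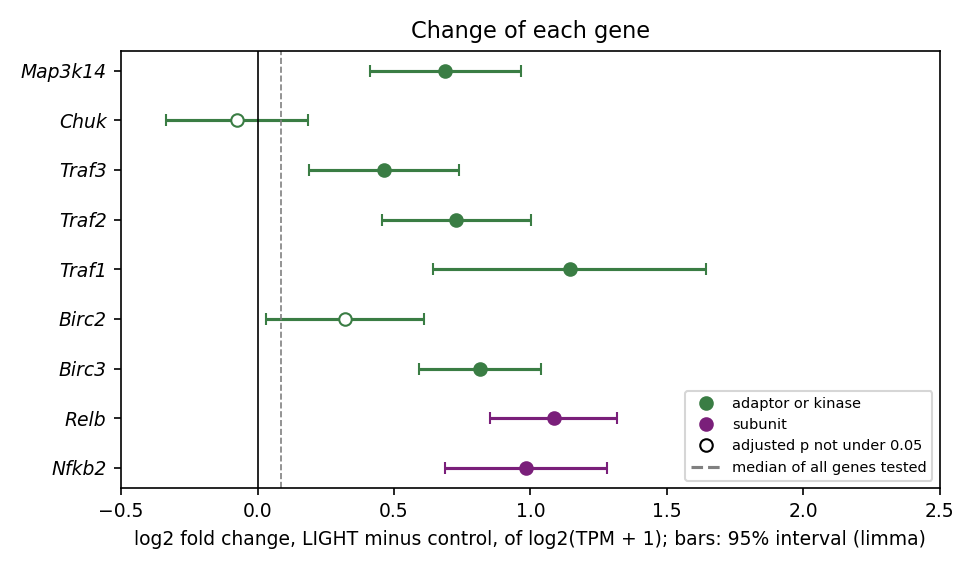
Log2 fold change (LIGHT minus control) of each gene with its 95% interval from limma (n = 3 each), with kinases, adaptors and ligases above and subunits at the bottom; the dashed line is the median of all tested genes, 0.09. The interval of Chuk includes 0, while those of Relb, Nfkb2, Birc3 and Traf1 lie above 0.5.

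The order of levels differed between the groups. In LIGHT tumours Nfkb2, Relb and Traf2 led, each without overlap with the next. Traf3, Chuk, Birc3 and Birc2 followed between 21.9 and 17.7 TPM, each overlapping its neighbour. Traf1 and Map3k14 were last, without overlap. In control tumours Nfkb2 led without overlap, and Relb, Chuk, Traf2, Traf3 and Birc2 formed a chain in which each overlapped the next, between 26.7 and 14 TPM. Birc3 came next, and Traf1 and Map3k14 overlapped at the low end. Relb was thus separate from Chuk in LIGHT tumours, at 2.53, 2.74 and 2.69 times its level, against 1.14, 1.22 and 1.12 times in control tumours.

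The contrast between the subunit genes and the adaptor and kinase genes was taken within each library. The mean log2(TPM + 1) of Relb and Nfkb2 minus that of the other 7 genes was 2.08, 2.11 and 1.93 in the LIGHT libraries, against 1.74, 1.47 and 1.55 in the control libraries. All LIGHT libraries lie above the controls in this difference. The LIGHT mean exceeded the control mean by 0.45, with an SD between libraries of 0.09 in LIGHT and 0.14 in control (n = 3 each). Without Birc3 and Traf1 among the 7 it was 0.61. Those genes had the largest rises of the 7, so leaving them out had to enlarge the difference. Leaving out Chuk and Birc2, with the smallest log2 fold changes of the 7 (-0.07 and 0.32), would have to shrink it. That value was not computed.

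Ratios between single genes, which a common factor per library cannot change but quantile scaling can, show that this difference is uneven. Of the 14 ratios of a subunit to an adaptor or kinase gene, 7 were higher in every LIGHT library than in every control library. The same held for 82.6% of the ratios of Relb to any other tested gene and for 77.8% of those of Nfkb2. The separate ratios were those to Chuk, Traf3 and Birc2, and that of Relb to Traf2. The ratios to Map3k14, Traf1 and Birc3 overlapped between the groups, as did that of Nfkb2 to Traf2. Relb per Traf1 transcript was 5.46, 5.26 and 4.9 in the LIGHT libraries, against 7.86, 3.97 and 6.95 in the control libraries.

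Over all 36 pairs among the 9 genes, 21 ratios did not overlap between the groups, against 46.1% of all pairs of tested genes. The ratio of Chuk to each of the other 8 genes was separate, and so were the ratios of Birc2 to the genes other than Traf3. Map3k14 per Traf3 transcript, the kinase against the adaptor that binds it, was 0.265, 0.349 and 0.364 in the LIGHT libraries, against 0.261, 0.264 and 0.247 in the control libraries. LIGHT replicate 1 lies only just above the controls. Relb, Nfkb2, Birc3, Map3k14 and Traf1 had no separate ratio among themselves.

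**Figure D3:**
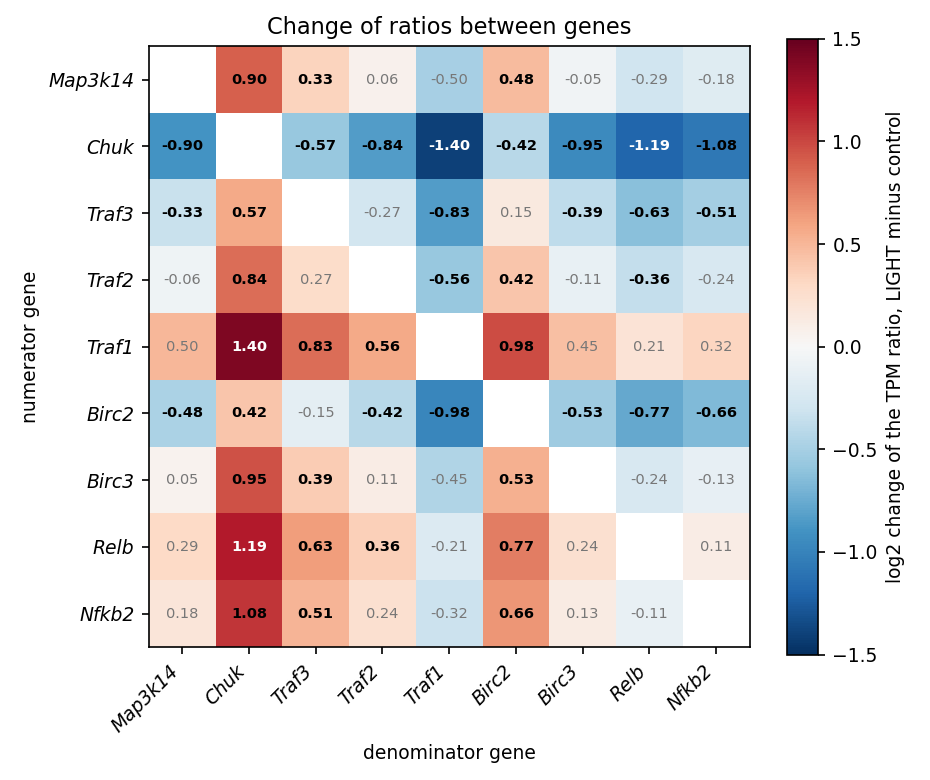
Log2 change of the TPM ratio between the row gene and the column gene, as the LIGHT mean minus the control mean (n = 3 each); bold marks pairs whose groups do not overlap. The row of Chuk is bold throughout, and none of the ratios among Map3k14, Traf1, Birc3, Relb and Nfkb2 is bold.

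Upstream of the 9 genes, 6 of the 9 tested ligand genes of the TNF superfamily rose, of 13 listed, against 17.7% of all tested genes. That count was 3 with the filter at 5 TPM or after quantile scaling, and 2 with either covariate for skeletal muscle or haemoglobin. Besides Tnfsf14 (log2 fold change 3.99, limma adjusted p = 7.01e-06), they included Ltb, which encodes the membrane partner of lymphotoxin alpha. It had 25.7, 28 and 23.5 TPM in the LIGHT libraries, against 5.69, 14.6 and 7.51 TPM in the control libraries. Control replicate 2 was again the high control, and the call of Ltb was lost with the haemoglobin covariate (limma adjusted p = 0.0652). Tnfsf12, which encodes TWEAK, averaged 6.47 TPM in LIGHT tumours and 3.61 TPM in control tumours (log2 fold change 0.70, limma adjusted p = 0.00774), a call lost with the skeletal muscle covariate (limma adjusted p = 0.113). Tnfsf13b, which encodes the B cell survival factor BAFF, averaged 4.77 TPM in LIGHT tumours and 2.39 TPM in control tumours, but it missed the threshold in 4 of the 17 alternatives, of which one left out control replicate 3 (limma adjusted p up to 0.0792). Tnfsf14 and Tnfsf8 were under 1 TPM in every control library, so the filter fixed the direction of their change.

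Of the 9 tested receptor genes 6 rose, of 12 listed, against 17.7% of all tested genes. Tnfrsf14, which encodes the herpesvirus entry mediator and binds LIGHT, had 19.4, 16.2 and 15.2 TPM in the LIGHT libraries, against 7.49, 8.93 and 7.48 TPM in the control libraries. Cd40, a receptor of antigen-presenting cells, averaged 7.19 TPM in LIGHT tumours and 3.39 TPM in control tumours. The T cell costimulatory receptor genes Tnfrsf4 and Tnfrsf9 rose by 0.93 and 1.13 on the log2 scale. Ltbr, which encodes the lymphotoxin beta receptor, had 76.8, 65.6 and 72.1 TPM in the LIGHT libraries, against 95.4, 86.6 and 83 TPM in the control libraries. The groups of Ltbr did not overlap, but it missed the threshold (log2 fold change -0.30, limma adjusted p = 0.0535), and it passed as lower in 5 of 18 other settings.

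Of 21 tested genes for other TRAFs, ubiquitin enzymes and kinases, of 22 listed, 2 rose and 0 fell (2 fell after TMM scaling), and the median log2 fold change was 0.13, against 17.7% higher and a median of 0.09 over all tested genes. The count of rises was 4 with the replicate block or the basal keratinocyte covariate. The risers were Ikbke, which encodes an IKK-related kinase, with 26 TPM in LIGHT tumours and 15 TPM in control tumours, and Tnip1, a partner of the inhibitor A20, with 54.7 TPM in LIGHT tumours and 35.4 TPM in control tumours. The deubiquitinase gene Cyld (log2 fold change 0.35, limma adjusted p = 0.0548) and the adaptor gene Tank (0.24, limma adjusted p = 0.122) did not pass. Of 14 canonical pathway genes 3 rose and 0 fell (1 fell after TMM or quantile scaling), with a median of 0.13, which is near the background of 17.7% higher and a median of 0.09. With the skeletal muscle covariate 1 rose. Nfkbie, an inhibitor gene, averaged 17.9 TPM in LIGHT tumours and 6.92 TPM in control tumours (log2 fold change 1.25, limma adjusted p = 0.000934). Nfkbib averaged 64.4 TPM in LIGHT tumours and 46.4 TPM in control tumours, and its call was lost with the skeletal muscle covariate (limma adjusted p = 0.143). The inhibitor gene Nfkbid rose with an adjusted p of 0.0473 in limma, and that call was lost in 12 of 18 other settings. Nfkbiz did not pass (log2 fold change -0.27, limma adjusted p = 0.0593). The canonical subunit genes Rela, Nfkb1 and Rel, named for the contrast with Relb and Nfkb2, had log2 fold changes of 0.10, 0.08 and 0.08 (limma adjusted p from 0.467 to 0.707).

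Of 13 tested genes known as targets of the lymphotoxin beta receptor or the noncanonical pathway, 11 rose, of 16 listed, against 17.7% of all tested genes, and the median over the 13 was 1.12 on the log2 scale. The skeletal muscle covariate gave a count of 5, and the haemoglobin covariate or the filter at 5 TPM gave 6. Ccl22, a chemokine gene of mature dendritic cells, had 10.9, 12.8 and 14.8 TPM in the LIGHT libraries, against 1.66, 2.01 and 2.01 TPM in the control libraries. Vcam1 and Icam1, which encode adhesion molecules, averaged 24.3 and 169 TPM in LIGHT tumours, against 6.91 and 73.1 TPM in control tumours. Ccl21a, which encodes a lymphoid chemokine and has near-identical copies that can share its reads, averaged 92.9 TPM in LIGHT tumours and 41.8 TPM in control tumours, and its call was lost with the skeletal muscle covariate (limma adjusted p = 0.0569). Cxcl13, Madcam1 and Glycam1, singled out because of their low levels, were filtered out, and none exceeded 0.95 TPM in any library. Tnfsf13b and Tnfsf11 are in both the ligand and the target list, and Ccl22 and Ccl17 in both the target and the dendritic cell marker list.

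**Figure D4:**
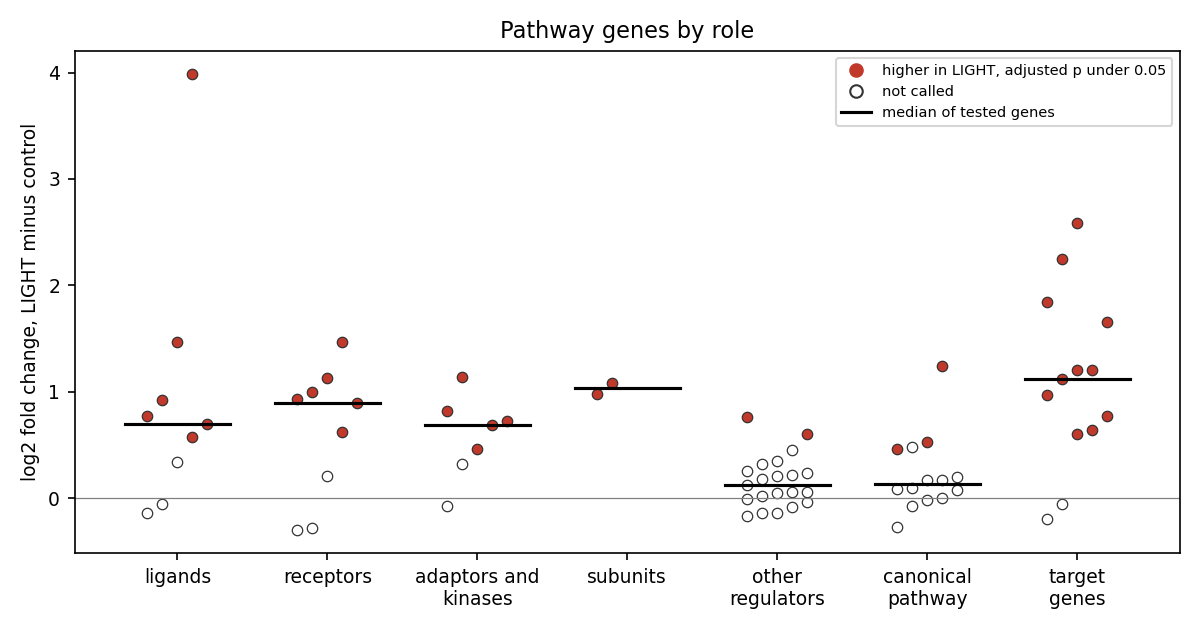
Log2 fold change (LIGHT minus control) of each tested gene by role, with the median as a line and called genes in red. The medians of ligands, receptors, adaptors and kinases, subunits and targets lie between 0.69 and 1.12, and those of other regulators and the canonical pathway at 0.13.

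Markers of other cells moved with these results. Over all tested genes, 17.7% rose and 5.41% fell. All 8 leukocyte marker genes rose, and their summed level ranged from 1233 to 1534 TPM in LIGHT libraries and from 524 to 840 TPM in control libraries. Of 10 matched T cell markers, of 12 listed, 9 rose, with sums of 264 to 319 TPM in LIGHT libraries and 70.9 to 171 TPM in control libraries. Of 10 macrophage markers 4 rose, with sums of 1004 to 1360 TPM in LIGHT libraries and 646 to 733 TPM in control libraries. Of 7 tested dendritic cell markers, of 11 listed, 5 rose, with sums of 150 to 167 TPM in LIGHT libraries and 92.1 to 123 TPM in control libraries. Ccl22 and Ccl17, among the risers, are also in the target list. Fscn1, the largest part of the sums, was not called (log2 fold change -0.04).

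None of the 8 B cell markers was at a level that allowed a test. Their sums were 2.19 to 2.37 TPM in LIGHT libraries and 0.64 to 1.79 TPM in control libraries. These sums did not overlap, but how often sums of such low genes separate was not computed. The 5 tested neutrophil markers, of 7 listed, were called in neither direction. The sums of the list ranged from 420 to 2962 TPM in LIGHT libraries and from 1376 to 1771 TPM in control libraries. S100a8 and S100a9 were the largest parts of these sums. Both were lowest in LIGHT replicate 2, the library with the lowest sum, while Csf3r, Cxcr2 and Retnlg were not. Of 15 basal keratinocyte markers, 0 rose and 1 fell, against 17.7% and 5.41% of all tested genes. Their sums were 20569 to 29995 TPM in LIGHT libraries and 29032 to 34973 TPM in control libraries. The gene that fell was Krt6a (log2 fold change -0.62, limma adjusted p = 0.0406), which averaged 5695 TPM in LIGHT tumours and 8625 TPM in control tumours. Like Krt16 and Krt17 in the same list, it is not particular to basal cells. Of 8 endothelial and 9 fibroblast markers 1 each rose, no more than the background of 17.7%. The endothelial one was Vwf (log2 fold change 0.74, limma adjusted p = 0.0126). In the fibroblast list it was Thy1 (log2 fold change 1.21, limma adjusted p = 0.00571), which is not particular to fibroblasts. Of 14 skeletal muscle markers none was called, with sums of 4919 to 8471 TPM in LIGHT libraries and 3217 to 5553 TPM in control libraries, and haemoglobin sums were 119 to 2083 TPM in LIGHT libraries and 69.8 to 452 TPM in control libraries. No marker gene that was matched was at 0 in every library. The part of these cells in the results was not tested.

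Relative to the summed leukocyte markers, no member was higher in every LIGHT library than in every control library. Cd52 was the largest part of those sums, at a mean of 795 TPM in LIGHT tumours and 368 TPM in control tumours. Relb per 1000 TPM of leukocyte markers was 43.5, 35.9 and 44.4 in the LIGHT libraries, against 54.2, 32.8 and 35.2 in the control libraries, and the groups overlap. For Nfkb2 it was 70.4, 60.6 and 70.3 in the LIGHT libraries, against 107, 53.6 and 59.6 in the control libraries. Chuk and Birc2 were lower per leukocyte marker in every LIGHT library, and the other 7 genes overlapped between the groups. Per 1000 TPM of basal keratinocyte markers, Relb was 2.11, 2.68 and 1.94 in the LIGHT libraries, against 0.812, 0.948 and 0.784 in the control libraries. On that scale every gene but Chuk was higher in every LIGHT library. The keratinocyte sums ran lower in LIGHT libraries (20569 to 29995 TPM) than in control libraries (29032 to 34973 TPM), with overlap. Dividing by them shifts genes upward in LIGHT tumours, and Chuk changed by 0.20 on the log2 scale, against -0.07 undivided. Dividing by the leukocyte sums, which were higher in LIGHT libraries, shifts genes downward. Neither count has a background, since the share over all tested genes was not computed.

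**Figure D5:**
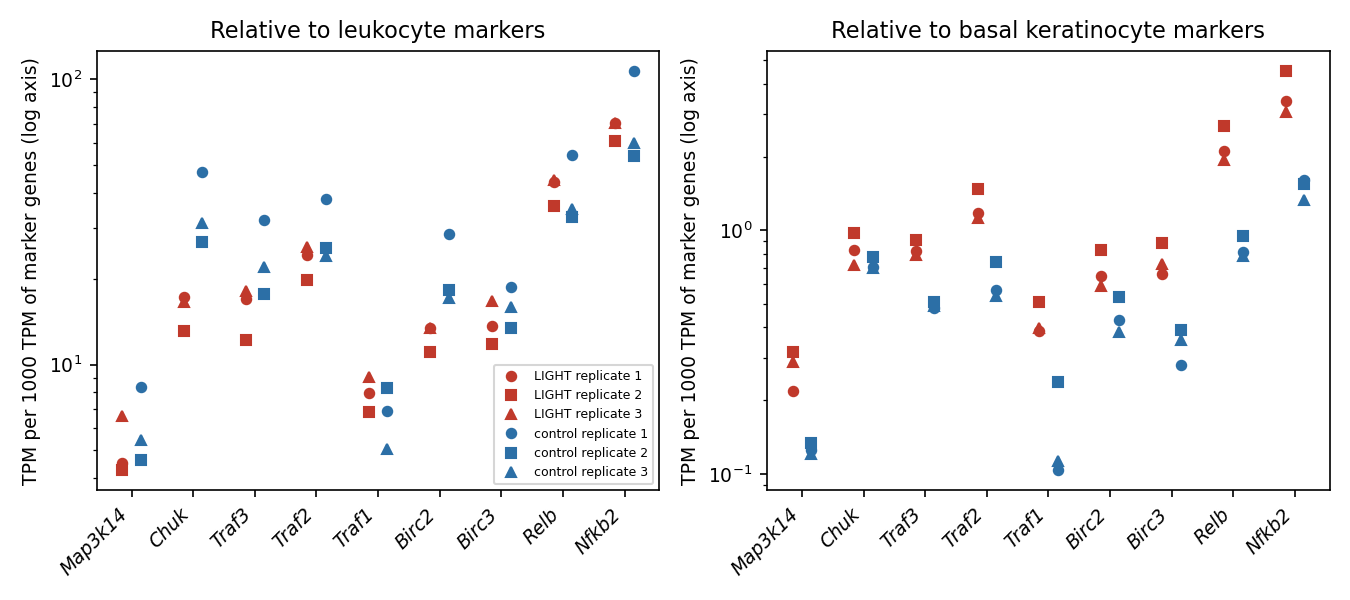
TPM of each gene per 1000 TPM of 8 leukocyte markers (left) or 15 basal keratinocyte markers (right), on log axes, with LIGHT left of control for each gene and 1 symbol per replicate. On the leukocyte scale the groups of 7 genes overlap, and on the keratinocyte scale only those of Chuk do. The share over all tested genes was not computed.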

How the data were processed

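Bulk RNA of 6 tumour tissue samples, depleted of ribosomal RNA per the labels' protocols, was quantified by the authors as TPM per gene, 1 column per library per the file headers; each column sums to about 1000000. HISAT, Bowtie2 and GRCm38.p6 appear in the submitters' processing notes, without role or version; the quantifier is not given in the sources used here. Samples were grouped by title.

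A gene entered the test if 3 or more libraries reached 1 TPM (13167 genes). The values log2(TPM + 1) were fitted by limma 3.58.1 under R 4.3.3 (mean-variance trend, 2-sided, LIGHT against control), with adjusted p over all of them. The fit was tested on simulated data. Members, lists and tests were chosen with earlier results of these data known, so no list serves as independent evidence. Named beyond the members were the 4 genes of smallest p in each list, Tnfsf14, Ltbr and Tnfrsf14, and the 3 profiles most like Relb and Nfkb2; Rela, Nfkb1, Rel and Psd were added after their values were seen. No 2 libraries were identical. Alternatives were pseudocounts of 0.1 and 0.5, no filter or one at 5 TPM, trimmed-mean (TMM) or quantile scaling, each library left out, a replicate block, muscle, haemoglobin or basal keratinocyte covariates, no trend, and robust estimation. Transcript 50-mers came from GENCODE M21, and promoters from RefSeq. Figures used matplotlib 3.10.9.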

Additional observations from a re-analysis of the deposited data

How the results depend on the processing

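Of the 9 genes 7 rose under every pseudocount, filter, scaling, block, trend and robust setting and with the basal keratinocyte covariate, 6 or 7 rose without any 1 library, 6 with haemoglobin (Traf1 did not pass) and 4 with skeletal muscle as a covariate (Relb, Nfkb2, Birc3 and Traf1). With that covariate Map3k14, Traf2 and Traf3 kept log2 fold changes of 0.68, 0.79 and 0.53 with wider SEs of 0.19, 0.18 and 0.18. Without both replicate 2 libraries, a choice made after seeing the data, 5 rose, and Map3k14 (adjusted p = 0.0527) and Traf3 did not pass. No member was called lower. Relb, Nfkb2 and Birc3 passed in all 18 settings. Chuk turned positive with the haemoglobin (0.054) and basal keratinocyte (0.017) covariates. The subunit minus adaptor and kinase difference was 0.39 to 0.53 without 1 library. It was 0.61 without Birc3 and Traf1, an increase fixed in advance by their large rises. Leaving out Chuk and Birc2 instead would have to shrink it, and that value was not computed.

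Over all tested genes the median log2 fold change was 0.09 as deposited, -0.04 after TMM and -0.04 after quantile scaling. Genes called lower numbered 712 as deposited, 2005 after TMM, where 1626 were higher, and 1813 after quantile scaling, where 1410 were higher, against 2325 as deposited. Without 1 library 1264 to 2027 were higher and 325 to 791 lower. There were 1264 higher genes without LIGHT replicate 3 and 1289 without control replicate 3, and 371, 325, 422, 394 and 433 lower ones without LIGHT replicates 2 and 3 and control replicates 1, 2 and 3. With the muscle covariate 662 were higher and 100 lower, and with the haemoglobin covariate 946 and 203. Ligands called higher were 3 with the filter at 5 TPM or quantile scaling and 2 with the muscle or haemoglobin covariate, and targets 6 with that filter, 5 with the muscle and 6 with the haemoglobin covariate; the canonical list had 1 with the muscle covariate. After TMM 1 receptor gene (Ltbr), 2 regulators (Cul1 and Fbxw11), 1 canonical gene (Nfkbiz) and 1 target (Bcl2l1) were lower; after quantile scaling 1 receptor gene (Ltbr) and 1 canonical gene (Nfkbiz) were. Receptor genes called lower were 0 to 1 without 1 library, and 1 (Ltbr) without LIGHT replicate 1, with the replicate block and with robust estimation. Regulators called higher were 4 with the replicate block and 4 with the basal keratinocyte covariate. The causes were not tested.

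Same-numbered libraries correlated at 0.37, 0.24 and 0.01 in their deviations from group means, and LIGHT replicate 2 correlated best with control replicate 3, so the numbers were not taken as pairing. With the replicate block 7 members rose and 0 fell, and 2325 genes were higher and 907 lower.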
